A study of Rattus norvegicus with 170 samples.

Results

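Single β-cells from vehicle-treated rat islets are described below through their most abundant RNAs, the correlations among genes and the level of *Ins1* as a gradient. The cells were chosen by their own measured hormone RNA: *Ins1* at 1000 RPM or more, where RPM is the share of reads as scaled and deposited by the authors, and *Gcg*, *Sst* and *Ppy* each below 1000 RPM. Of the 170 cells in the series 86 carried the vehicle label, and 50 of these passed. High *Ins1* and low *Gcg*, *Sst* and *Ppy* in these cells are therefore results of the choice and were not tested.

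The study profiled rat islet cells on a microfluidic chip after treatment of whole islets in culture. Hand-picked islets of wild-type Sprague Dawley male rats, 8 weeks old, were held for 48 h in RPMI1640 with 10% FBS and 5.5 mM glucose, and the vehicle was 0.1% DMSO. Islets were then dispersed with trypsin, single cells were caught on a C1 chip for cells of 10 to 17 µm, cDNA was made with SMARTer chemistry, and Nextera XT libraries were read as single 50 bp reads on a HiSeq 1000. No animal, culture or further chip is named for the vehicle cells, so the 50 cells are 1 sample, and every correlation below describes cells that shared a chip and a loading, without a test.

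Pancreatic β-cells make insulin, which in the rat comes from *Ins1* and *Ins2*. The prohormone is folded in the endoplasmic reticulum (ER), cut by the convertases of *Pcsk1* and *Pcsk2*, trimmed by the carboxypeptidase of *Cpe*, and stored with zinc in dense granules. Release is set off by glucose, which enters rodent β-cells through the transporter GLUT2, the product of *Slc2a2*.

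The cut-offs fell in wide gaps for most cells. The lowest *Ins1* among the members was 3891 RPM in cell 82, and the nearest kept cell below the minimum, cell 90, had 495 RPM. The highest *Gcg* among the members was 865 RPM in cell 95, against 5982 RPM in cell 60, the lowest of the 22 cells that *Gcg* left out. The highest *Ppy* was 29.7 RPM in cell 26, against 1244 RPM in cell 79, the lowest of 7 cells left out by *Ppy*. *Sst* reached 27.4 RPM in member cell 28, against 5747 RPM in cell 37, the 1 cell it left out. Before this step 4 vehicle cells had been dropped for a listed total below 300000 RPM; the highest of these totals was 189295 RPM in cell 80, and the lowest total kept was 802633 RPM in cell 36.

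The members were read at different depth. Mapped reads were inferred by taking the lowest RPM above the floor of 0.01 in each cell as the value of a read. They spanned 241604 to 2497246 with a median of 1182925. Genes with a read spanned 4677 in cell 69 to 10713 in cell 46 with a median of 8870. Over the 50 cells 16611 genes had a read in at least 1 member and 1689 had a read in every member. The values are shares of reads, not divided by transcript length, so levels of different genes are not comparable per molecule.

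Markers of β-cells that the choice did not use differed widely in level among members. *Iapp*, the gene of islet amyloid polypeptide that is stored and released with insulin, had a read in all 50 cells, with lowest, median and highest values of 2.04, 684 and 12254 RPM. *Slc2a2* also had a read in all 50 cells, at 1.50, 470.1 and 8734 RPM. *Ucn3*, a peptide hormone of mature β-cells, was read in 48 cells with a median of 140.0 RPM. The transcription factor gene *Pdx1* was read in 45 cells with a median of 31.4 RPM, and *Nkx6-1* in 38 cells with a median of 7.04 RPM. *Mafa*, another β-cell transcription factor gene, had reads in only 3 cells and no value above 3.67 RPM. By *Iapp*, *Slc2a2* and *Ucn3* the β-cell label fitted most members, while *Mafa* was sparse, *Iapp* in cell 7 was at its lowest value, 2.04 RPM, and cell 46 is an exception described below. A read alone does not set members apart, since *Iapp* and *Slc2a2* were also read in all 7 cells with low *Ins1*, where *Slc2a2* reached 29.6 RPM. Member cells 36, 82, 69, 51 and 76 lay below that value, at 1.50, 7.81, 8.12, 8.44 and 16.6 RPM.

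RNA of other islet hormones was found at low level. *Gcg*, the glucagon gene, had a read in all 50 members, with lowest, median and highest values of 16.2, 80.5 and 865 RPM, whereas *Sst* was read in 15 cells and *Ppy* in 34. Of the other alpha-cell markers *Gc*, a vitamin D binding protein, had a median of 401 RPM, *Tmem27*, known from both alpha and β-cells, of 304 RPM and *Slc7a2* of 40.1 RPM, while *Ttr* and *Pou3f4* had no read and *Irx2* was read in 2 cells. The duct markers *Krt7*, *Krt18* and *Epcam* had medians of 147, 138 and 142 RPM, while the duct markers *Krt19* and *Sox9* were read in 6 and 4 cells.

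Collagen and other mesenchymal RNA was concentrated in cells 24 and 46, which were picked out after their values were seen. The sum of mesenchymal markers was 12278 RPM in cell 46 and 8379.8 RPM in cell 24, against a median of 0.946 RPM over members. *Col1a1*, a chain of collagen I, stood at 3470.2 RPM in cell 46 and 3056 RPM in cell 24, and *Dcn*, the matrix proteoglycan decorin, at 2539 and 671 RPM. Cell 46 also had the highest number of genes with a read. It held 11547 RPM of *Ins1* beside these markers, its β-cell marker sum of 12270.5 RPM was below its mesenchymal sum, and it had the lowest *Resp18* of all members, 419 RPM. Cell 24 held 49075 RPM of *Ins1*. Marker sums of acinar, endothelial and immune cells reached at most 232, 224 and 116 RPM in any member. These markers of other cell types are measured facts about the set, and their part in the results below was not tested; without cells 24 and 46 the rho of *Iapp* with *Ins1* was 0.71 and that of *Ddit3* was -0.53.

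Several genes of cell division were read only in cell 46. No member but cell 46 had a read of *Top2a*, the topoisomerase of dividing cells, or of *Ccnb1*, the mitotic cyclin B1; cell 46 held 310.3 and 49.4 RPM. *Mki67*, a nuclear marker of cycling cells, was read in 9 cells and was highest, at 239.8 RPM, in cell 46. *Rrm2*, a ribonucleotide reductase subunit, was read only in cell 46, at 313 RPM. In 27 members none of the listed proliferation genes had a read.

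Insulin RNA was the most abundant in the set and varied widely. *Ins1* had lowest, median and highest values of 3891, 40864 and 147087 RPM, a 37.8-fold range from cell 82 to cell 6. *Ins2* had 183, 15246 and 106034 RPM, a 579-fold range from cell 82 to cell 3. Together the insulin genes took 0.494, 5.95 and 26.2% of the listed RPM in the lowest, median and highest cell.

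Beneath insulin the most abundant RNAs were of mixed kind. *Hspa5*, the ER chaperone BiP, had the highest median after *Ins1* and *Ins2*, with 931, 6807 and 18283 RPM as lowest, median and highest. *Scg2*, a granin of secretory granules, had 1768, 6333 and 16102 RPM. *Aldoa*, an aldolase of glycolysis, had a median of 5471 RPM, and *Ssr3*, a subunit of the translocon-associated complex of the ER, had 4290.3 RPM. The ferritin genes *Ftl* and *Fth1*, which store iron, had medians of 3838 and 2936 RPM. *Cpe* had a median of 2738 RPM and *Cd63*, a membrane protein of late endosomes and granules, 3273 RPM. *Ubb*, a gene of ubiquitin, had a median of 4368 RPM, and the elongation factor *Eef2* 2459 RPM. The cytosolic chaperone gene *Hsp90ab1* had a median of 3062 RPM. The ribosomal RNA entries *Rn45s* and *Rn18s* were also among the 20 highest, with medians of 2659 and 2438 RPM. Also among the 20 were 4 symbols without a gene name, *LOC100912411*, *LOC100362384*, *LOC100360087* and *LOC100360413*, with medians of 5831, 4014, 2575 and 2352 RPM. The 20 genes, *Ins1* and *Ins2* among them, held 14.3% of the listed RPM in the median cell.

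Spread from cell to cell was measured as the interquartile range (IQR) of log2(RPM + 1) over the 2438 genes with a median of 50 RPM or more. The median IQR was 1.52 and the lowest 0.38. *Ins1* had an IQR of 1.18 and *Ins2* of 2.04. The 10 largest ranges belonged to genes read in some cells and absent from others, led by *Idh1*, an isocitrate dehydrogenase, with an IQR of 7.30, reads in 37 cells and lowest, median and highest values of 0, 68.4 and 504 RPM. Next were *Mapk1ip1* at 7.24, *Sqrdl* at 7.14, *Elf3* at 6.73, *Thumpd3* at 6.65 and *Ube2h* at 6.56. *Hmgcs1*, an enzyme of the cholesterol pathway, had 6.42, followed by *Zbtb4* at 6.41, *Rasd1* at 6.28 and *Lgals3bp* at 6.23. At these levels a value of 0 in a cell can be lost RNA or missing RNA, which cannot be told apart here. Narrow ranges were seen for *Ubb* at 0.48, for the secretory granule gene *Scg5* at 0.58 and for *Resp18*, a further granule protein, at 0.48.

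Along the *Ins1* gradient, genes of hormone processing ran with *Ins1*, and ribosomal protein genes and some genes of ER and integrated stress ran against it. For this comparison each gene was taken as its share of reads outside *Ins1* and *Ins2*, because shares of all reads sum to a constant and insulin alone took up to 26.2%. Of 4387 genes tested over 50 cells, 131 (2.99%) had a Spearman rho with *Ins1* of 0.4 or more and 230 (5.24%) had -0.4 or less. The median rho was 0.01. On RPM as deposited the counts were 66 and 364. With each cell thinned to 100000 reads they were 96 and 128 of 2971 genes tested, and with LOC and RGD symbols left out, chosen after seeing the data, 87 and 97 of 3416. Without cells 6 and 88, the cells farthest from the median *Ins1* in RPM, 135 genes had -0.4 or less. On a log scale cells 82 and 76, lowest in *Ins1*, lie farther. An *Ins1* minimum of 10000 RPM left 48 cells, without cells 82 and 76. The counts were then 124 and 218 of 4377 genes tested. *Ins1* itself had a rho of 0.07 with the number of genes with a read and -0.17 with mapped reads.

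*Ins2* had the closest tie to *Ins1* of the β-cell markers, followed by *Iapp*, *Slc2a2* and *Ucn3*. On RPM as deposited, the rho of *Ins1* with *Ins2* was 0.92 over 50 cells and the Pearson r on the log scale was 0.92. Without cells 6 and 88 they were 0.91 and 0.91. Reads that fit both rows and RNAs that vary together cannot be told apart for this pair. The values of *Iapp*, *Slc2a2* and *Ucn3* below are on the share of reads outside insulin. The ratio of *Ins2* to *Ins1* had lowest, median and highest values of 0.0458, 0.365 and 0.823, and its rho with *Ins1* was 0.67, a pair that shares *Ins1*. *Iapp* had a rho of 0.71 (Pearson r 0.64) and 0.67 without cells 6 and 88. *Slc2a2* had a rho of 0.60 (r 0.58), and 0.54 without those cells. *Ucn3* had 0.52 (r 0.56).

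**Figure D1:**
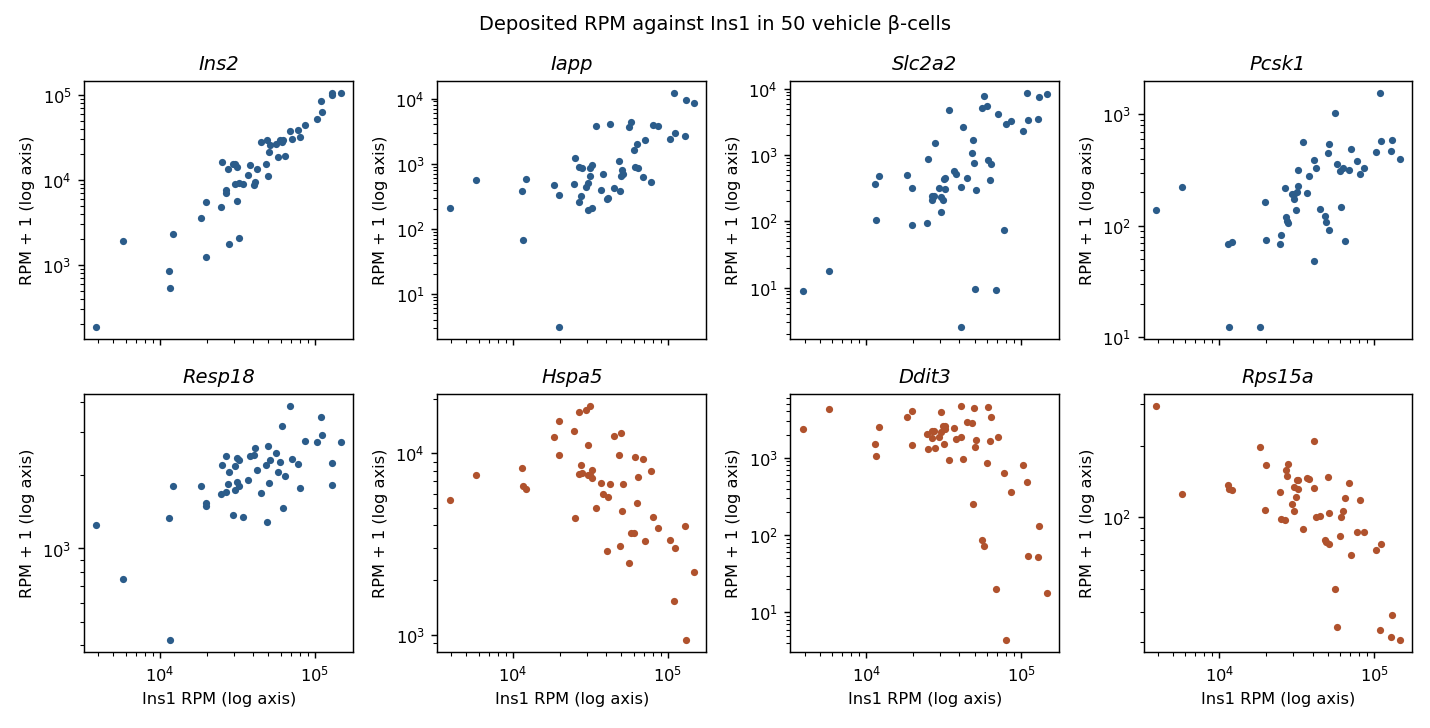
Deposited RPM of 8 genes against *Ins1* in the 50 cells, on log axes, with each point a cell and 1 RPM added to the vertical value. *Ins2*, *Iapp*, *Slc2a2*, *Pcsk1* and *Resp18* are in blue, and *Hspa5*, *Ddit3* and *Rps15a* in brown. The genes were picked once their values had been seen. The rho values with *Ins1*, on the share of reads outside insulin, were 0.71 for *Iapp*, 0.60 for *Slc2a2*, 0.71 for *Pcsk1*, 0.68 for *Resp18*, -0.52 for *Hspa5*, -0.51 for *Ddit3* and -0.60 for *Rps15a*.

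Single cells show how loosely *Slc2a2* was tied to *Ins1*. Cell 58 combined 109221 RPM of *Ins1* with the highest *Slc2a2*, 8734 RPM, and the highest *Iapp*, 12254 RPM. Cell 6, with the highest *Ins1*, held 8432 RPM of *Slc2a2* and 8444 RPM of *Iapp*. Cell 69 held 69018 RPM of *Ins1* with only 8.12 RPM of *Slc2a2*, and cell 41 held 77421 RPM with 73.2 RPM. Cell 10 had 4799 RPM of *Slc2a2* with 34467 RPM of *Ins1*, below the median. Cell 82, lowest in *Ins1*, held 7.81 RPM of *Slc2a2*. These cells were picked once their values had been seen.

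Prohormone processing and granule genes stood on the positive side throughout. All 17 tested of 19 listed had a rho above 0, with a median of 0.39, 8 at 0.4 or more and 0 at -0.4 or less; over all 4387 genes tested the median was 0.01, with 2.99% at 0.4 or more and 5.24% at -0.4 or less. *Pcsk1* had a rho of 0.71 (r 0.61), next to *Iapp* at the top of the genes tested, which leave out *Ins2*, and had lowest, median and highest values of 11.2, 209 and 1563 RPM. *Scg5*, whose product 7B2 assists the convertase of *Pcsk2*, had 0.65, and *Pcsk2* itself 0.40 (r 0.54). *Sytl4*, which encodes the granule protein granuphilin, had 0.63. *Cpe* had 0.50, *Pam*, the enzyme that amidates peptide ends, 0.48, *Ptprn*, a membrane protein of granules, 0.47, and *Rab27a*, a GTPase of granule docking, 0.43. *Scg2*, the most abundant granin, had 0.33.

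The remaining genes among the 10 with the highest rho were of mixed kind. *Resp18* had a rho of 0.68 (r 0.70) and *Clu*, the secreted chaperone clusterin, 0.64 (r 0.57). *C1galt1c1*, a chaperone of a glycosyltransferase, had 0.63, and the unnamed symbols *LOC100363494* and *LOC100911216* had 0.65 and 0.62. Of the 131 genes at 0.4 or more 44 bore such LOC or RGD symbols, as did 133 of the 230 at -0.4 or less and 971 of the 4387 tested. *Gnas*, the stimulatory G protein subunit that raises cyclic AMP, had 0.59 and was chosen after its values were seen.

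Genes of β-cell identity and of glucose sensing showed medians of similar size. Of the transcription factor list 6 of 19 could be tested, with a median rho of 0.22, 1 at 0.4 or more and 0 at -0.4 or less. That gene was *Neurod1*, at 0.42 (r 0.27), with lowest, median and highest values of 15.7, 420.4 and 1135 RPM. Of the glucose sensing and stimulus coupling list 8 of 19 could be tested, with a median of 0.24, 2 at 0.4 or more and 0 at -0.4 or less. These were *Slc2a2* and *Tmem27*, a membrane protein also called collectrin, at 0.44. Of the exocytosis list 6 of 15 could be tested, with a median of 0.02 and none past either limit; over all 4387 genes tested the median was 0.01, with 2.99% at 0.4 or more and 5.24% at -0.4 or less.

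Genes of translocation into the ER and folding lay on both sides of 0, 12 above and 15 below. Of 27 tested out of 28 listed the median rho was -0.04, 1 was at 0.4 or more and 3 at -0.4 or less; over all 4387 genes tested the median was 0.01, with 2.99% at 0.4 or more and 5.24% at -0.4 or less. *Ero1lb*, a disulphide oxidase of the β-cell ER, was the 1, at 0.42. The 3 were *Dnajb9*, a co-chaperone, at -0.55, *Hspa5* at -0.52 (r -0.46, and rho -0.46 without cells 6 and 88) and *Herpud1*, a component of ER-associated degradation, at -0.40. *Ssr3*, at -0.12, *Canx*, the lectin chaperone calnexin, at 0.00, and *P4hb*, a protein disulphide isomerase, at 0.24, lay between. *Hspa5* was lowest in cell 88, 931 RPM, a cell with 129813 RPM of *Ins1*.

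Genes of the integrated stress and unfolded protein response leaned against *Ins1*. Of 11 tested out of 16 listed the median rho was -0.20, 0 were at 0.4 or more and 3 at -0.4 or less; over all 4387 genes tested the median was 0.01, with 2.99% at 0.4 or more and 5.24% at -0.4 or less. *Ppp1r15a*, which encodes the GADD34 subunit that removes the phosphate from eIF2α, had -0.59 (r -0.52). *Ddit3*, the gene of the stress factor CHOP, had -0.51 (r -0.54, and rho -0.45 without cells 6 and 88), and *Trib3*, a pseudokinase that CHOP induces, -0.51. *Ddit3* was abundant in most members, with lowest, median and highest values of 3.35, 1722 and 4731 RPM. *Ddit3* stood at 17.0 RPM in cell 6 and at its lowest in cell 84. *Atf4*, the transcription factor at the centre of the integrated stress response, had -0.26, and *Xbp1* 0.03.

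Ribosomal protein genes lay almost wholly on the negative side. Of 75 tested out of 79 listed, 74 had a rho below 0, with a median of -0.33, 0 at 0.4 or more and 27 at -0.4 or less; over all 4387 genes tested the median was 0.01, with 2.99% at 0.4 or more and 5.24% at -0.4 or less. Their summed level had lowest, median and highest values of 9520.4, 27940.2 and 40182 RPM. *Rps15a* had -0.60 (r -0.64) and *Rps27* -0.55. *St13*, a co-chaperone of HSP70, had -0.60 (r -0.62), *Ncl*, the nucleolar protein nucleolin, -0.58, and *Vps26a*, a part of the retromer that sorts endosomal cargo, -0.57. The other genes among the 10 lowest were the unnamed *LOC685085* at -0.60, *LOC100362987* at -0.59, *LOC100362999* at -0.58, *LOC691716* at -0.58 and *LOC680426* at -0.57.

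The heat shock and chaperone list also leaned negative. Of 8 genes tested out of 12 the median rho was -0.32, with 0 at 0.4 or more and 3 at -0.4 or less: *Hsp90ab1* at -0.43, *Hspa8* at -0.41 and *Hspe1*, a mitochondrial co-chaperone, at -0.41. The inducible *Hspa1b* stood apart at 0.33. Genes of oxidative phosphorylation encoded in the nucleus showed no lean: the median of 72 tested out of 74 was 0.03, with 0 at 0.4 or more and 1, *Ndufa6* of complex I, at -0.50; over all 4387 genes tested the median was 0.01, with 2.99% at 0.4 or more and 5.24% at -0.4 or less.

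Genes of the glycolysis and hypoxia list had a rho above 0 in every case tested. All 13 tested of 18 listed had a rho above 0, with a median of 0.29, 4 at 0.4 or more and 0 at -0.4 or less; over all 4387 genes tested the median was 0.01, with 2.99% at 0.4 or more and 5.24% at -0.4 or less. The 4 were *Ndrg1*, a gene that low oxygen induces, at 0.55, *Pkm*, pyruvate kinase, at 0.49 (r 0.21), *Gpi*, glucose phosphate isomerase, at 0.49, and *Gapdh* at 0.48. The abundant *Aldoa* had a rho of only 0.11 (r -0.004), and -0.01 on RPM as deposited. *Ldha*, a lactate dehydrogenase kept low in β-cells, was read in 43 cells with a median of 6.01 RPM and its highest value, 1259 RPM, in cell 24, which also held mesenchymal RNA.

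The other lists are given in turn. Of 5 immediate early genes tested out of 17 the median rho was 0.19, with 1 at 0.4 or more and 1 at -0.4 or less: *Btg2*, an antiproliferative gene, at 0.50 and *Atf3*, a stress-induced factor, at -0.50. *Fos* had 0.30. Of 16 antioxidant genes tested out of 24 the median was -0.16, with 0 at 0.4 or more and 1, the glutathione peroxidase *Gpx4*, at -0.45. *Hmox1*, the heme oxygenase that oxidative stress induces, had -0.19 and lowest, median and highest values of 25.4, 1913 and 16027 RPM. Of 4 inflammation and antigen presentation genes tested out of 20 the median was 0.03, with 0 at -0.4 or less and 1 at 0.4 or more, *B2m*, the light chain of MHC class I, at 0.55. Of 5 cholesterol genes tested out of 23 the median was -0.10 and none passed a limit. Of 3 cell cycle genes tested out of 23 the median was -0.09, with *Ccnd1*, cyclin D1, at 0.41. Of 3 genes named for β-cell heterogeneity tested out of 16 the median was 0.24, with *Ucn3* at 0.52. The disallowed genes, kept low in β-cells, had 1 of 13 tested, *Maf* at 0.28. Over all 4387 genes tested the median was 0.01, with 2.99% at 0.4 or more and 5.24% at -0.4 or less.

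**Figure D2:**
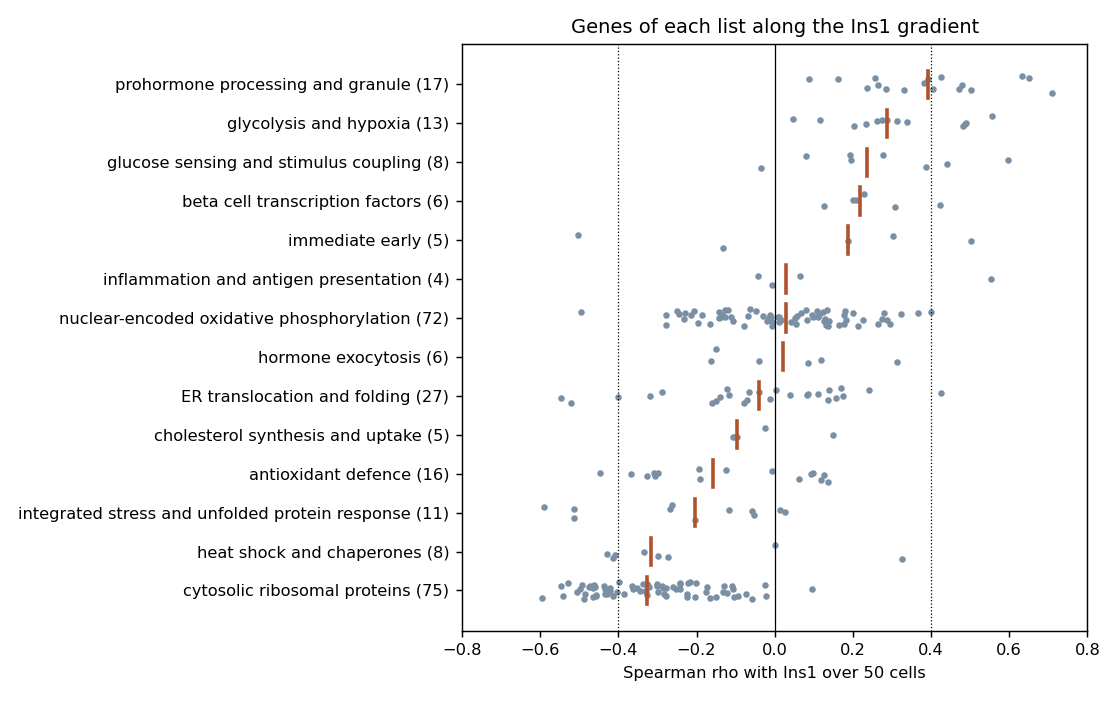
Spearman rho with *Ins1* over 50 cells for the genes of each list with 4 or more genes tested. Each grey point is a gene, the brown bar is the median of the list, dotted lines mark -0.4 and 0.4, and the number in brackets is the number of genes tested. Medians spanned -0.33 for cytosolic ribosomal proteins to 0.39 for prohormone processing and granule genes.

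Gene-gene correlation was mostly near 0. Over 9620691 pairs of the tested genes the median rho was 0.02, the lowest was -0.77, and 19905 pairs (0.207%) had 0.6 or more. The share was 0.0534% with each cell thinned to 100000 reads, and 0.134% with LOC and RGD symbols left out, an alternative chosen after seeing the data. The 10 strongest pairs all lay among the ferritin genes and symbols without a gene name. *Ftl* with *LOC100362384* had 0.998, *LOC100359668* with *LOC100364138* 0.998 and *Fth1* with *LOC679217* 0.998. *LOC100360087* with *Ftl* and *LOC100363177* with *LOC100364138* were also among them. Reads that fit several rows and RNAs that vary together cannot be told apart from the table.

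Among the β-cell markers outside insulin the closest pair was *Iapp* with *Slc2a2*, at a rho of 0.77 (r 0.66). *Iapp* had 0.71 with *Sytl4*, 0.60 with *Pcsk1* and 0.59 with *Ucn3*. *Cpe* had 0.67 with *Tmem27*, and *Pam* 0.62 with *Slc2a2*. *Slc2a2* and *Hspa5* had -0.58, and *Slc2a2* and *Rps27* -0.69. The median over the 136 pairs of granule genes was 0.29, and over the 15 pairs of β-cell transcription factors 0.22. Single pairs given here and in the next paragraph were picked once all values had been seen.

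Pairs among stress genes and among glycolysis genes are given next. *Hspa5* had 0.71 (r 0.71) with *Manf*, a secreted factor of ER stress, and 0.62 with *Ddit3*. *Ddit3* had 0.65 with *Ppp1r15a*. *Gapdh* had 0.77 (r 0.54) with *Pgk1*, the next enzyme of glycolysis, and -0.67 with *Trib3*. Over the 78 pairs of the glycolysis and hypoxia list the median rho was 0.40 and 8 had 0.6 or more. Over the 2775 pairs of ribosomal protein genes the median was 0.44 and 376 had 0.6 or more. Over all pairs the median was 0.02 and 0.207% had 0.6 or more. *Btg2* had 0.65 with *Sytl4*.

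Taken as a score per cell, lists were tied to one another as well. Granule and glucose sensing scores had a rho of 0.71 over 50 cells, and granule and ribosomal scores -0.61. With *Ins1* the granule score had 0.63, the glucose sensing score 0.51, the transcription factor score 0.45, the glycolysis and hypoxia score 0.44, the ribosomal score -0.44, the heat shock score -0.43 and the integrated stress score -0.41. *Gcg*, on which the members were selected, had a rho of 0.32 with the granule score, -0.38 with the ribosomal score, 0.39 with *Ins2*, 0.50 with the ratio of *Ins2* to *Ins1* and -0.45 with mapped reads, and its part in these values was not tested. The scores share reads of the same cell and also ran with depth. With the number of genes with a read the immediate early score had 0.55, the cholesterol score 0.51 and the transcription factor score 0.38. The antioxidant score had 0.36 and the glucose sensing score 0.31. With mapped reads the ER translocation and folding score had 0.32, the antioxidant score 0.32 and the integrated stress score 0.27. The ribosomal score had 0.20 and the granule score -0.15 with mapped reads.

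**Figure D3:**
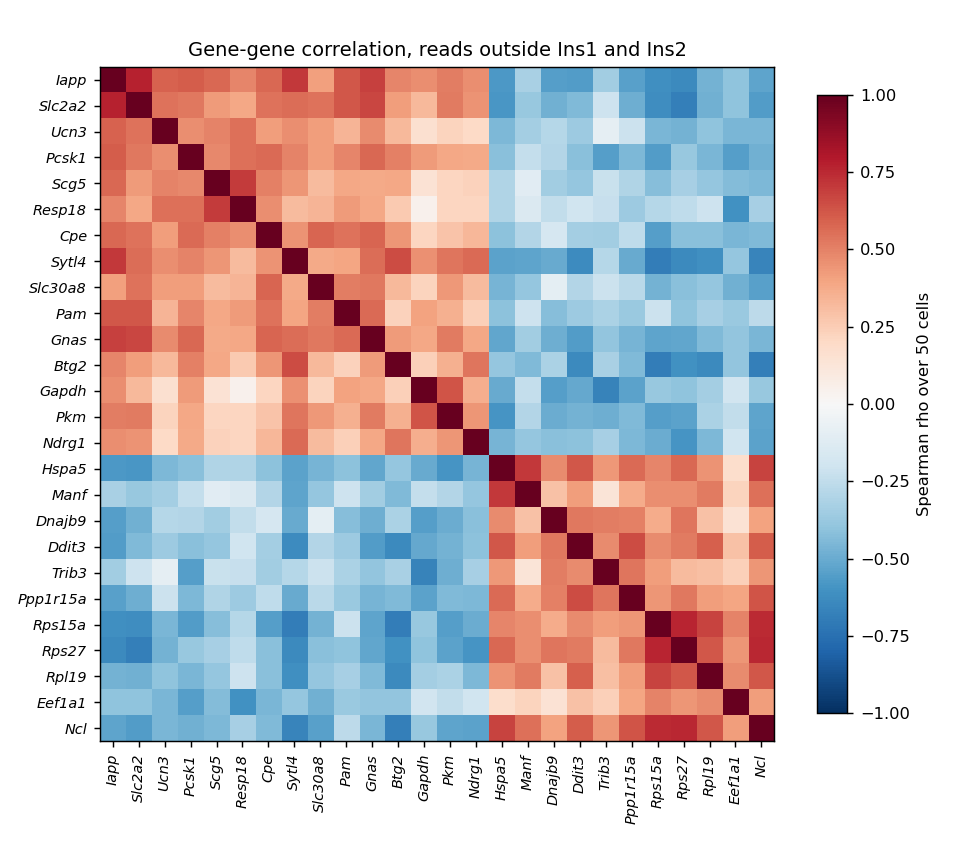
Spearman rho between 26 genes over 50 cells, on the share of reads outside *Ins1* and *Ins2*, red for positive and blue for negative. The genes were chosen after their rho with *Ins1* was seen, so the division into a block led by *Iapp* and a block led by *Hspa5* is partly a result of that choice. *Iapp* with *Slc2a2* is at 0.77, *Hspa5* with *Manf* at 0.71 and *Slc2a2* with *Rps27* at -0.69.

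The vehicle cells left out by the choice are given side by side, without a contrast. The 25 cells with *Ins1* and another hormone had lowest, median and highest *Ins1* of 1784, 31158 and 112094 RPM and *Gcg* of 46.4, 159881 and 301714 RPM. Their *Slc2a2* was 1.09, 275 and 7734 RPM and their *Iapp* 119, 751 and 5807 RPM. In these cells *Hspa5* was 1361, 3482 and 8759 RPM, *Ddit3* 1.77, 455 and 2934 RPM and *Clu* 1426, 5096 and 23586 RPM. Members had medians of 6807, 1722 and 1529 RPM for *Hspa5*, *Ddit3* and *Clu*. The 7 cells with *Ins1* below the minimum had *Slc2a2* of 1.74, 5.99 and 29.6 RPM and *Pcsk1* of 0, 1.39 and 24.4 RPM.

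The sequence before the transcription start of the insulin genes and of *Iapp* and *Slc2a2* was read for TAAT, the core bound by homeodomain factors such as PDX1, and for CATCTG, an E box of the kind bound by NEUROD1; these genes are shown because *Ins1* sets the gradient and the other 3 follow it. Sequences are 250 bases of the rat build GRCr8 before the RefSeq start, given on the strand of the gene, and capitals mark TAAT or CATCTG on either strand (ATTA or CAGATG in reverse). *Ins1* lies at chr1:261185869-261186118 on the plus strand, with 6 TAAT and 2 CATCTG. *Ins2* lies at chr1:207273806-207274055 on the minus strand, with 4 TAAT and 1 CATCTG. *Iapp* lies at chr4:176967847-176968096 on the plus strand, with 4 TAAT and 0 CATCTG. *Slc2a2* lies at chr2:113540120-113540369 on the plus strand, with 1 TAAT and 0 CATCTG. Of 33469 rat promoters of this length 57% had TAAT at least 1 time, 10.8% at least 4 times and 3.34% at least 6 times. CATCTG was present in 14% and at least 2 times in 1.2%. A match describes the sequence and shows no binding.
Ins1: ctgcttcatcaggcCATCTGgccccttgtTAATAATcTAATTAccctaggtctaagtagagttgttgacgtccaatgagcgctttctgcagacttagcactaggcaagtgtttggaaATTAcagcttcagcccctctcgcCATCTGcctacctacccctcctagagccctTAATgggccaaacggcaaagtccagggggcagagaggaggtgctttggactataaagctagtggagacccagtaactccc
Ins2: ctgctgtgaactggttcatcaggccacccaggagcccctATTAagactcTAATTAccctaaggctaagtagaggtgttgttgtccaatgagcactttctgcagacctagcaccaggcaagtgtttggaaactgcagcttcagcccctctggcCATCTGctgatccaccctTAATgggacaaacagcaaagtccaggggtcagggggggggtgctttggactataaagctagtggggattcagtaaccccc
Iapp: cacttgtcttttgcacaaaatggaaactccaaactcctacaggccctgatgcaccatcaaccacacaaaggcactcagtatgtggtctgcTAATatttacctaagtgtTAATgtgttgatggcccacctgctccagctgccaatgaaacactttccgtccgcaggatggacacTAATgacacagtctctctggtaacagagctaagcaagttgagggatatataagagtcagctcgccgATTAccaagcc
Slc2a2: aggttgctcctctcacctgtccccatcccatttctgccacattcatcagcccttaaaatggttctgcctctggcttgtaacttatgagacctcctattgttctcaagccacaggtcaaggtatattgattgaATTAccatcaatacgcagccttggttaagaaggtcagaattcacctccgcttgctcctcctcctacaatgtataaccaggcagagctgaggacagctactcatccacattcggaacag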

How the data were processed

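Values were the scaled read shares (RPM) deposited by the authors for 27586 transcript rows, and 69.7% of values stood at the floor of 0.01 RPM and were set to 0. Rows were summed by symbol to 24113 symbols, 2726 of them with several rows, and vehicle cells with a listed total below 300000 RPM were dropped. Read counts, used for mapped reads and for thinning, were inferred by taking the lowest RPM above the floor in each cell as the value of a read. The submitters' processing notes name CASAVA 1.8.2, BWA 0.5.9 and SAMtools 0.1.19 and a mouse transcriptome, while the rows carry rat RefSeq identifiers, of which 17365 matched the table of GRCr8.

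Genes with a read in at least 80% of members and a median of at least 10 RPM were tested. Each gene was divided by the reads outside *Ins1* and *Ins2*, and Spearman rho with *Ins1* RPM was computed over the 50 cells. Pearson r used log2 values after adding 1 RPM, and the score of a list in a cell was the mean of its standardized tested genes. Named genes were the marker genes, the 20 highest medians, the 10 highest and 10 lowest rho, the 10 largest IQR, the genes of the 10 strongest pairs and up to 6 examples of each of 17 gene lists. Members and lists were chosen with earlier results of these data known. The code, in Python 3.11.15 with numpy 2.4.6, pandas 2.3.3 and matplotlib 3.10.9, was tested on simulated data.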

Additional observations from a re-analysis of the deposited data

How the results depend on the processing

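With *Gcg*, *Sst* and *Ppy* each below 100 RPM there were 32 members. Among these 279 genes had a rho with *Ins1* of 0.4 or more, 235 had -0.4 or less and 0.367% of pairs had 0.6 or more; a fixed rho is passed more often by chance with fewer cells, so these counts do not measure the effect of the hormone limit. Scale mattered for the balance of signs. On RPM as deposited 66 genes had 0.4 or more and 364 had -0.4 or less, against 131 and 230 on the share of reads outside insulin. With all 50 cells thinned to 100000 reads, 128 genes had -0.4 or less and 0.0534% of pairs had 0.6 or more. Without the 2 cells farthest from the median *Ins1* in RPM, 135 genes had -0.4 or less. With LOC and RGD symbols left out, an alternative chosen after seeing the data, 87 genes had 0.4 or more, 97 had -0.4 or less and 0.134% of pairs had 0.6 or more. List medians of rho were within 0.1 in 250 of 257 values. The median of the oxidative phosphorylation list changed sign, from 0.03 to -0.07 on RPM as deposited. RPM per kb of coding sequence was not run, because no protein table was given. No paired analysis was possible because the title numbers 1 to 96 recur in other treatments and nothing in the labels joins the cells that share them.

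All cells came from a single sample, with no animal or further chip named, so nothing here extends to other vehicle cells. Depth, shares that sum to a constant and rows with near-equal values can enter the correlations, and their part was not tested. With the rank of mapped reads taken out, 119 genes had a rho with *Ins1* of 0.4 or more and 199 had -0.4 or less. The members were chosen by *Ins1*, the gene of the gradient.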

Other observations

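Some hormone, surface and secreted protein genes reached high values in some members, and were chosen after their values were seen. *Trh*, the gene of thyrotropin-releasing hormone, had lowest, median and highest values of 0.868, 1174 and 73665 RPM, with its highest value in cell 88. *Msln*, the surface protein mesothelin, had 1.64, 1825 and 9132 RPM, with an IQR of 1.32, below the median IQR of 1.52. *Npy*, the gene of neuropeptide Y, was read in 29 cells and reached 1654 RPM. *Lcn2*, an iron-binding protein of the acute phase, reached 4205 RPM in cell 51.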
